A study of Mus musculus with 6 samples.

Results

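Of the 23282 genes counted in mouse forebrain, 42 that encode scaffolds and organizers of the postsynaptic density were followed across 3 libraries of mice on a normal chow diet (NCD) and 3 libraries of mice on a high-fat diet (HFD). They were chosen by name, mostly from proteins known at the postsynaptic side, with earlier results of the same comparison known. Their values between the diets are therefore a description and support nothing. Among them is Synpo2, which the paper had already named as upregulated in these data. All 42 were in the table of every library and all 42 passed the filter on low counts that left 13771 genes to test. The mice were male C57BL/6J of the wild-type genotype, between 8 and 10 weeks of age, and the HFD, with 60% of its calories from fat, was given for 10 days. The tissue was the whole forebrain hemisphere, without the olfactory bulbs and the cerebellum, so that cortex, hippocampus, striatum and deeper regions were measured as a mixture. The labels do not say whether each library came from its own mouse, and p-values then measure only the spread between these libraries, which may be technical. The question of the comparison was which transcripts of the brain differ after a short period of HFD feeding.

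The postsynaptic density is a layer of protein under the membrane of the dendritic spine, facing the site where glutamate is released. Membrane-associated guanylate kinases of the PSD-95 family hold receptors and adhesion molecules in place, SAPAP proteins tie them to Shank proteins, and Shank binds Homer, which reaches metabotropic glutamate receptors and intracellular calcium stores. Calcium that enters through NMDA receptors activates CaMKII and calcineurin, which act in opposite directions on synaptic strength, and actin regulators set the shape of the spine. Gephyrin and neuroligin 2 are known for inhibitory synapses and stand here beside the excitatory members.

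The libraries were QuantSeq libraries, primed on the poly(A) tail, so that a read marks the 3′ end of a transcript. Levels are in CPM, which sets every library to the same total, here after TMM scaling. Levels are not divided by length, and are compared between libraries of 1 gene and not between genes. The libraries held between 6842785 and 9689372 counts. All 8 neuron markers had counts in every library, and their summed level was between 6258 and 6838 CPM. HFD replicate 3 stood apart from the other libraries: 6 pituitary markers summed to 1264 CPM in it and to between 2.08 and 8.95 CPM in the others, 6 midbrain markers to 20.8 CPM against 39.7 to 54.1, and 8 hypothalamus markers to 27.5 CPM against 67.3 to 108. Among the hypothalamus markers, Hcrt, Pmch, Oxt and Avp were lowest in HFD replicate 3. Pomc, at 12.2 CPM against 1.16 to 4.64 CPM, and Sim1 were highest in it. The share of counts on Rn45s, a ribosomal RNA precursor, was between 5.55% and 8.75% and was highest in HFD replicate 3.

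The summed level of the postsynaptic density members differed between the diets by less than the spread between libraries. It was 18035, 16373 and 17437 CPM in NCD replicates 1, 2 and 3 against 17321, 16849 and 16518 CPM in HFD replicates 1, 2 and 3, or 17282 ± 842 and 16896 ± 404 CPM (SD, n = 3 each), a ratio of 0.978. Nrgn and Ppp3ca alone made up 8910 and 8813 CPM of these means, so the sum says little about members of lower level. None of the 42 had an adjusted p under 0.05 by the quasi-likelihood test of edgeR, adjusted over all genes tested by the Benjamini-Hochberg method, and the lowest adjusted p of a member was 0.979. Over all genes tested the count was 0 as well, or 0%. At an unadjusted p under 0.05 there were 2 members, the Homer scaffold Homer1 and the actin-binding Synpo2, both higher on the HFD, where 507 genes or 3.68% of all tested passed, 1.71% higher and 1.98% lower. With a fold change of at least 1.5 besides, only Synpo2 remained of the members, beside 176 genes or 1.28% of all. The libraries of the diets did not overlap for 5 members, with Homer1, Lrrtm2 and Synpo2 higher and Dlg3 and Homer2 lower on the HFD, and for 1213 genes or 8.81% of all, 4.31% higher and 4.49% lower. In whole tissue, fewer cells of a type and less RNA per cell cannot be told apart.

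The log2 fold change of HFD against NCD was above 0 for 17 members and below 0 for 25. Its median was -0.037, against -0.0025 over all genes tested, and it ranged from -0.56 for Shank1 to 1.06 for Synpo2. For 39 members it was under 0.25 in size, and for 29 it was smaller than its own standard error (SE). The SE of a member lay between 0.088 and 0.35 with a median of 0.12, and it was under 0.2 for 37 of them. The median size of the log2 fold change was 0.099 over the members and 0.12 over all genes tested. Mean levels over the 6 libraries reached from 3.18 to 4583 CPM, with 4 members over 1000 CPM and 4 under 10 CPM.

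**Figure D1:**
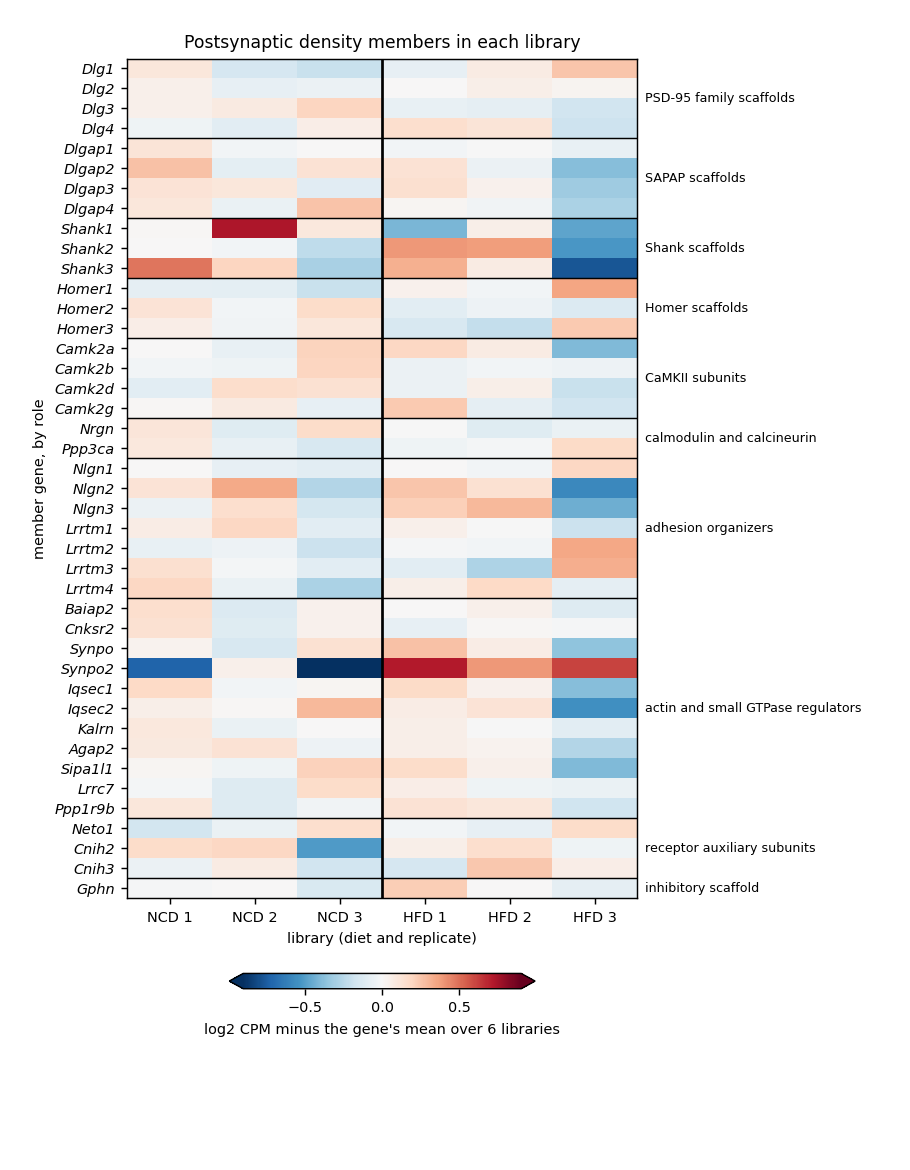
Log2 CPM of the 42 members in each of the 6 libraries, minus the mean of the gene over the libraries, with rows grouped by role and a black line between the diets. Colours stop at 0.9 on either side of 0. The column of HFD replicate 3 is blue for most rows, where 23 members have their lowest value, and Synpo2 is red in all 3 HFD libraries.

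Among the PSD-95 family scaffolds, Dlg3 (SAP102) separated by diet and the other members did not. Dlg3, which carries NMDA receptors to the synapse early in development, measured 184, 189 and 204 CPM in the NCD libraries against 170.2, 169 and 158 CPM in the HFD libraries. Every HFD library was below every NCD library, by a log2 fold change of -0.21 (SE 0.10) with an unadjusted p of 0.0501 in edgeR's test. Dlg3 was under 0.05 in 5 of the other settings, DESeq2, library size alone, quantile normalization with limma, at least 10 counts in every library and robust estimation, with an adjusted p of 0.839 or more over all settings. Dlg4, which encodes PSD-95 itself, the scaffold of AMPA and NMDA receptor complexes, measured 324, 312 and 346 CPM on the NCD and 370.4, 361 and 292 CPM on the HFD. Its HFD replicates 1 and 2 were above all NCD libraries and HFD replicate 3 was below them, for a log2 fold change of 0.060 (SE 0.11). Dlg2 (PSD-93) had the smallest SD within diets of all 42 members, with 152, 140.1 and 142 CPM against 148, 152 and 150.0 CPM and a log2 fold change of 0.054 (SE 0.10). Dlg1 (SAP97), which also serves in epithelial cells, was at 132, 111 and 108 CPM against 117, 129.8 and 146 CPM, with HFD replicate 3 the highest library and overlap between the diets. The count of Dlg4 divided by that of Dlg3 was 1.76, 1.65 and 1.70 in the NCD libraries against 2.18, 2.14 and 1.85 in the HFD libraries, and the diets did not overlap in this ratio. The pair was set side by side after its values had been seen.

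The SAPAP scaffolds, which link PSD-95 to Shank, all had a log2 fold change below 0 and all 4 were lowest in HFD replicate 3. Dlgap1 measured 1415, 1286 and 1313 CPM on the NCD and 1285, 1304 and 1245 CPM on the HFD, with a log2 fold change of -0.066 (SE 0.088), the smallest SE among the members. Dlgap4 was at 336, 299.98 and 373 CPM against 317, 305 and 257 CPM, or -0.20 (SE 0.11), and Dlgap2 at 60.2, 47.2 and 54.8 CPM against 54.7, 48.2 and 38.5 CPM, or -0.20 (SE 0.14). For Dlgap3, known for the corticostriatal synapse, the level was 151, 149 and 129 CPM against 153, 142 and 111 CPM and the log2 fold change -0.076 (SE 0.13). Without HFD replicate 3 the value of Dlgap3 was 0.048, and the other 3 genes were below 0 in every setting tried. The diets overlapped for each of the 4 genes.

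The Shank scaffolds, which bridge the SAPAP and Homer layers, included the member with the lowest log2 fold change and the one with the largest SD within diets. Shank1 had 25, 47 and 31 counts in the NCD libraries against 16, 29 and 16 counts in the HFD libraries, or 3.09, 5.07 and 3.27 CPM against 2.30, 3.17 and 2.20 CPM. Its log2 fold change of -0.56 (SE 0.35) was the lowest among the members, had an unadjusted p of 0.129 in edgeR's test, and rested on overlapping diets. Shank2 had 32, 36 and 32 counts on the NCD and 36, 47 and 20 counts on the HFD, with a log2 fold change of 0.23 (SE 0.32). In CPM, 3.95, 3.88 and 3.37 against 5.18, 5.14 and 2.75, its HFD replicates 1 and 2 were above the NCD libraries and HFD replicate 3 was the lowest of all. Shank3, the gene lost in Phelan-McDermid syndrome, was at 67.1, 54.9 and 39.4 CPM on the NCD and 60.03, 50.6 and 28.2 CPM on the HFD. Replicate 3 of either diet was low for Shank3, which had the largest SD within diets of the 42 members, 0.49 on the log2 scale, and its log2 fold change was -0.21 (SE 0.22).

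The Homer scaffolds had values on opposite sides of 0. Homer1 (chr13:93299635-93405129, plus strand, GRCm38, with no exon of another gene over its exons) measured 136, 136 and 125 CPM on the NCD and 148, 141 and 184 CPM on the HFD, or 132 ± 6.27 CPM on the NCD and 158 ± 23.1 CPM on the HFD (SD, n = 3 each). Its HFD libraries were all above the NCD libraries, closely so in replicates 1 and 2 and widely in replicate 3, for a log2 fold change of 0.26 (SE 0.12), an unadjusted p of 0.0444 and an adjusted p of 0.979 in edgeR's test. Without HFD replicate 3 the log2 fold change of Homer1 was 0.13 (unadjusted p 0.17 by edgeR), and with replicate 3 of both diets left out, a choice made after the counts were seen, it was 0.090 (unadjusted p 0.265 by edgeR). With the replicate number as a block it was 0.25 (unadjusted p 0.0777 by edgeR), no longer under 0.05. Homer1 is known for a short form, Homer1a, that neuronal activity induces and that uncouples the long forms, and counts per gene do not tell these forms apart. Homer2 (chr7:81600481-81707527, minus strand) measured 155, 140.2 and 160.2 CPM on the NCD and 134, 138 and 131 CPM on the HFD, all HFD libraries lying below the NCD libraries, for a log2 fold change of -0.18 (SE 0.10) with an unadjusted p of 0.108. An exon of Gm44570 overlaps Homer2 on the other strand, and the use of strand in the counting is not given in the sources used here. The count of Homer1 divided by that of Homer2 was 0.877, 0.967 and 0.780 in the NCD libraries against 1.11, 1.02 and 1.40 in the HFD libraries, or 0.875 ± 0.0936 and 1.18 ± 0.201 (SD, n = 3 each), without overlap. This ratio too was formed after its values had been seen. Since Homer1 was higher and Homer2 lower in every HFD library, the ratio could not overlap, and it adds nothing to the 2 genes. Homer3, which is better known from the cerebellum, was at 22.7, 21.4 and 23.5 CPM against 19.7, 18.8 and 25.7 CPM, with a log2 fold change of -0.076 (SE 0.15), and HFD replicate 3 was its highest library.

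**Figure D2:**
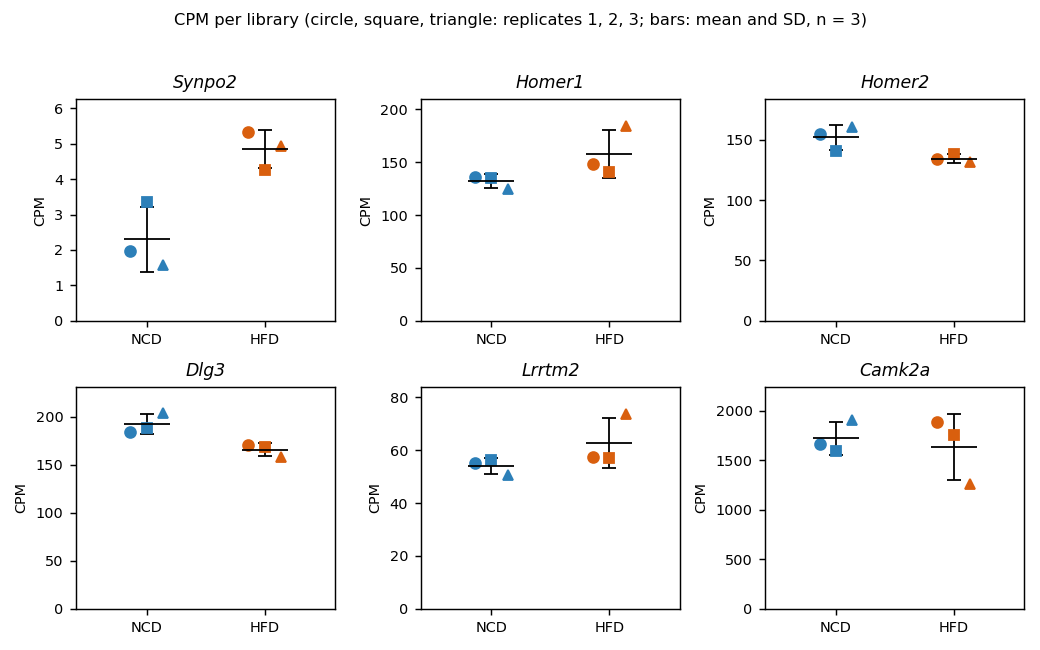
CPM in each library for the 5 members whose libraries did not overlap between the diets and for Camk2a, with replicates 1, 2 and 3 as circle, square and triangle and the mean and SD as bars (n = 3). In Homer1 and Lrrtm2 the triangle of HFD replicate 3, at 184 and 73.7 CPM, lies far above the other HFD libraries, and in Camk2a it lies below all libraries at 1259 CPM.

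The promoters of Homer1 and Homer2 are shown since the pair lay on opposite sides between the diets. They run from 250 bases before to 50 bases after the start of a transcript in RefSeq on GRCm38.p6, and each gene has a second entry that is not printed. Capitals mark TGACG on either strand, the core of the cyclic AMP response element.
Homer1, chr13:93303507-93303806, plus strand: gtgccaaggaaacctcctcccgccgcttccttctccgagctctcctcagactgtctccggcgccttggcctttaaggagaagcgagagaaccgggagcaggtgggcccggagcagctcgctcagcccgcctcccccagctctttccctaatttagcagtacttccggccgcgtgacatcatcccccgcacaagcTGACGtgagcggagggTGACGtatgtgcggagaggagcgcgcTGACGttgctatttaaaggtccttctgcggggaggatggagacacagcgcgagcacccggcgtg
Homer2, chr7:81706876-81707175, minus strand: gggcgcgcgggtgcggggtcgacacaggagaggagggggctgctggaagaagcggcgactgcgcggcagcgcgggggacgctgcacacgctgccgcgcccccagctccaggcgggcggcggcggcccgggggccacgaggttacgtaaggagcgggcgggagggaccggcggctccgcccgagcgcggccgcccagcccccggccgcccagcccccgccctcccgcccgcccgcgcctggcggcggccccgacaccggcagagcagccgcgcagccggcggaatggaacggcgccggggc
The Homer1 window held 3 copies and the Homer2 window held none. The second entry of Homer1, not printed, held no copy, and neither did that of Homer2. Of 32851 mouse promoters of this length, 6837 or 20.8% held at least 1 TGACG and 1.03% held 3 or more. The tables held a promoter for 32 of the 42 members, in 49 entries, of which 8 or 16.3% held it, in 7 members. No entry of a member held the full element TGACGTCA, which 1.79% of all promoters did. The GC box GGGCGG stood in 26 of the 49 entries, or 53.1%, and in 35.7% of all promoters, CACGTG in 8.16% against 7.15%, and TATAAA in 14.3% against 13.6%, each read on both strands. A match of letters is not a site in use, and binding of a factor was not measured.

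The CaMKII subunits all had a log2 fold change below 0 with the 6 libraries, which for Camk2a and Camk2g was above 0 without HFD replicate 3, at 0.080 and 0.073. Camk2a, the alpha subunit of forebrain excitatory neurons, measured 1665, 1587 and 1905 CPM on the NCD and 1886, 1748 and 1259 CPM on the HFD. HFD replicate 3 was its lowest library while HFD replicates 1 and 2 were above NCD replicates 1 and 2, and the log2 fold change was -0.076 (SE 0.13). Camk2b, whose product binds actin, was at 478, 474 and 558 CPM against 469.9, 478 and 473 CPM, with a log2 fold change of -0.088 (SE 0.099). The count of Camk2a divided by that of Camk2b was 3.48, 3.35 and 3.41 on the NCD against 4.02, 3.65 and 2.66 on the HFD, so that HFD libraries lay on both sides of the NCD libraries. For the broadly expressed Camk2d and Camk2g the log2 fold changes were -0.13 (SE 0.12) and -0.0050 (SE 0.12), on levels of 59.3 to 75.9 CPM and 107 to 142 CPM over the 6 libraries.

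Nrgn and Ppp3ca, on the calmodulin side of the same signal, were among the members with the smallest SE. Nrgn encodes neurogranin, a small protein that holds calmodulin at low calcium, and measured 4602, 3950.4 and 4791 CPM on the NCD and 4264, 3963 and 4104 CPM on the HFD, with a log2 fold change of -0.11 (SE 0.090). Ppp3ca, the catalytic subunit of calcineurin, was at 4889, 4356 and 4142 CPM against 4458, 4512 and 5139 CPM, with a log2 fold change of 0.076 (SE 0.091). Both overlapped between the diets.

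Of the 7 adhesion organizers, the single-pass proteins that face neurexins across the cleft, 1 separated by diet. Lrrtm2, which binds neurexins at excitatory synapses, measured 55.3, 56.1 and 50.7 CPM on the NCD and 57.4, 56.9 and 73.7 CPM on the HFD. The log2 fold change of Lrrtm2 was 0.21 (SE 0.13) with an unadjusted p of 0.106 in edgeR's test. With scaling by library size alone, the diets overlapped for Lrrtm2. Most of the difference lay in HFD replicate 3, without which the log2 fold change of Lrrtm2 was 0.083, and the gene lies in Ctnna1 on the opposite strand, whose exons overlap its own. Lrrtm1 was at 124, 135 and 111 CPM against 123, 118 and 104 CPM, with a log2 fold change of -0.10 (SE 0.11). Lrrtm3, at 44.7, 39.9 and 37.8 CPM against 37.9, 33.3 and 50.7 CPM, had a log2 fold change of -0.0081 (SE 0.15) with HFD replicate 3 its highest library, and Lrrtm4, from 16.6 to 23.1 CPM, had one of 0.099 (SE 0.16). The diets overlapped for Lrrtm1, Lrrtm3 and Lrrtm4. Nlgn2, the neuroligin of inhibitory synapses, measured 127, 147 and 97.0 CPM on the NCD and 138, 128 and 77.7 CPM on the HFD, low in replicate 3 of either diet, with the second largest SD within diets, 0.38, and a log2 fold change of -0.11 (SE 0.18). Nlgn1, the neuroligin of excitatory synapses, was steady at 109.7, 104 and 103 CPM against 110.0, 108 and 125 CPM, or 0.11 (SE 0.11). Nlgn3 was between 3.30 and 5.46 CPM over the libraries, with a log2 fold change of 0.076 (SE 0.29), and an exon of Gm21986 overlaps it on the same strand.

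Of the 11 regulators of actin and of small GTPases, Synpo2 had the highest log2 fold change of all members. Synpo2 (chr3:123076519-123236149, minus strand, GRCm38, with no overlapping exon of another gene) encodes synaptopodin 2, also called myopodin, an actin-binding protein known mostly from skeletal, heart and smooth muscle. The paper had named its upregulation from the same libraries, so the values here are no independent support. Synpo2 had 16, 31 and 15 counts in the NCD libraries against 37, 39 and 36 counts in the HFD libraries, or 1.97, 3.34 and 1.58 CPM against 5.33, 4.26 and 4.95 CPM. The mean was 2.30 ± 0.926 CPM on the NCD and 4.85 ± 0.54 CPM on the HFD (SD, n = 3 each), and no HFD library reached down to the NCD libraries. The fold change was 2.09, its log2 value 1.06 (SE 0.35), and edgeR's test gave an unadjusted p of 0.0080 and an adjusted p of 0.979. Over the other settings tried, the log2 fold change was between 0.83 and 1.44, the unadjusted p between 0.0021 and 0.048, and the adjusted p was 0.656 or more. Beside it, 8 markers of smooth muscle and pericytes, all with counts in every library, summed to 53.0, 55.1 and 56.6 CPM on the NCD and 69.1, 65.7 and 59.9 CPM on the HFD, or 54.9 ± 1.82 and 64.9 ± 4.63 CPM (SD, n = 3 each). The markers did not move together in HFD replicate 3. Rgs5 (29.1 CPM) and Kcnj8 (5.91 CPM) had their highest value there, and Myh11 (2.20 CPM), Pdgfrb (6.60 CPM), Des and Cnn1 their lowest. Of the 8 markers 6 were tested, 5 with a log2 fold change above 0, and the part of the markers in the value of Synpo2 was not tested.

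The Synpo2 promoter is shown as that of the member with the largest fold change, from RefSeq on GRCm38.p6, with capitals for TGACG and for TATAAA, here on the other strand and so read as TTTATA.
Synpo2, chr3:123236100-123236399, minus strand: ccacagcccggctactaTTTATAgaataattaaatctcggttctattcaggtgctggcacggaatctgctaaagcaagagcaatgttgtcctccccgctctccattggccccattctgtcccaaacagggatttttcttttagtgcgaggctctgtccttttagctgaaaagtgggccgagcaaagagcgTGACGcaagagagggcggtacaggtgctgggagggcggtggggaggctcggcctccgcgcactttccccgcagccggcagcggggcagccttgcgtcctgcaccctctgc
It held 1 copy of each, and 57.3% of its bases were G or C, against 63.0% in the Homer1 window and 82.3% in the Homer2 window.

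Synpo, the paralog of Synpo2 and the component of the spine apparatus of forebrain neurons, had a log2 fold change of 0.00034 (SE 0.14), whose sign changed with the scaling. Its level was 111, 98.3 and 119.9 CPM on the NCD and 131, 114 and 84.8 CPM on the HFD, where replicate 3 was the lowest library and replicate 1 the highest. Sipa1l1 (SPAR), a Rap GTPase-activating protein of spines, showed the same order in the HFD libraries, with 354, 341 and 403 CPM against 393, 362 and 265 CPM and a log2 fold change of -0.11 (SE 0.13). Iqsec2, an exchange factor for Arf6, was at 104, 101 and 123 CPM against 105, 109 and 68.2 CPM, and its log2 fold change was -0.21 (SE 0.15) with all libraries and -0.029 without HFD replicate 3. The 4 members Iqsec1, Agap2, Lrrc7 (densin) and Cnksr2 had log2 fold changes of -0.10, -0.11, -0.029 and -0.051, and Kalrn (kalirin, a Rac exchange factor), Baiap2 (IRSp53) and Ppp1r9b (spinophilin) had -0.027, -0.045 and 0.036. Over the 6 libraries Iqsec1 ranged from 112 to 166 CPM, Agap2 from 151 to 198 CPM, Lrrc7 from 29.7 to 36.0 CPM and Cnksr2 from 259.6 to 308 CPM, and Kalrn from 311 to 355 CPM, Baiap2 from 181 to 219 CPM and Ppp1r9b from 179 to 223 CPM. Each of these 7 log2 fold changes was smaller in size than its SE, as were those of Synpo and Sipa1l1.

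The 3 auxiliary subunits of glutamate receptors had log2 fold changes above 0 and below their SE with the 6 libraries. Cnih2, a cornichon that slows the closing of AMPA receptors, measured 398, 404 and 249 CPM on the NCD and 368, 394 and 345 CPM on the HFD, with NCD replicate 3 far below the others and a log2 fold change of 0.076 (SE 0.15), or -0.12 without that library. Cnih3, from 24.9 to 33.1 CPM, had a log2 fold change of 0.11 (SE 0.14), and Neto1, which accompanies kainate and NMDA receptors, from 37.3 to 47.0 CPM, had 0.041 (SE 0.13), which was -0.036 without HFD replicate 3. Gphn, the gephyrin scaffold under glycine and GABA-A receptors, measured 64.4, 65.2 and 59.0 CPM on the NCD and 75.4, 65.0 and 61.2 CPM on the HFD. HFD replicate 1 was highest for Gphn and the other HFD libraries lay within the range of the NCD libraries, for a log2 fold change of 0.096 (SE 0.12).

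**Figure D3:**
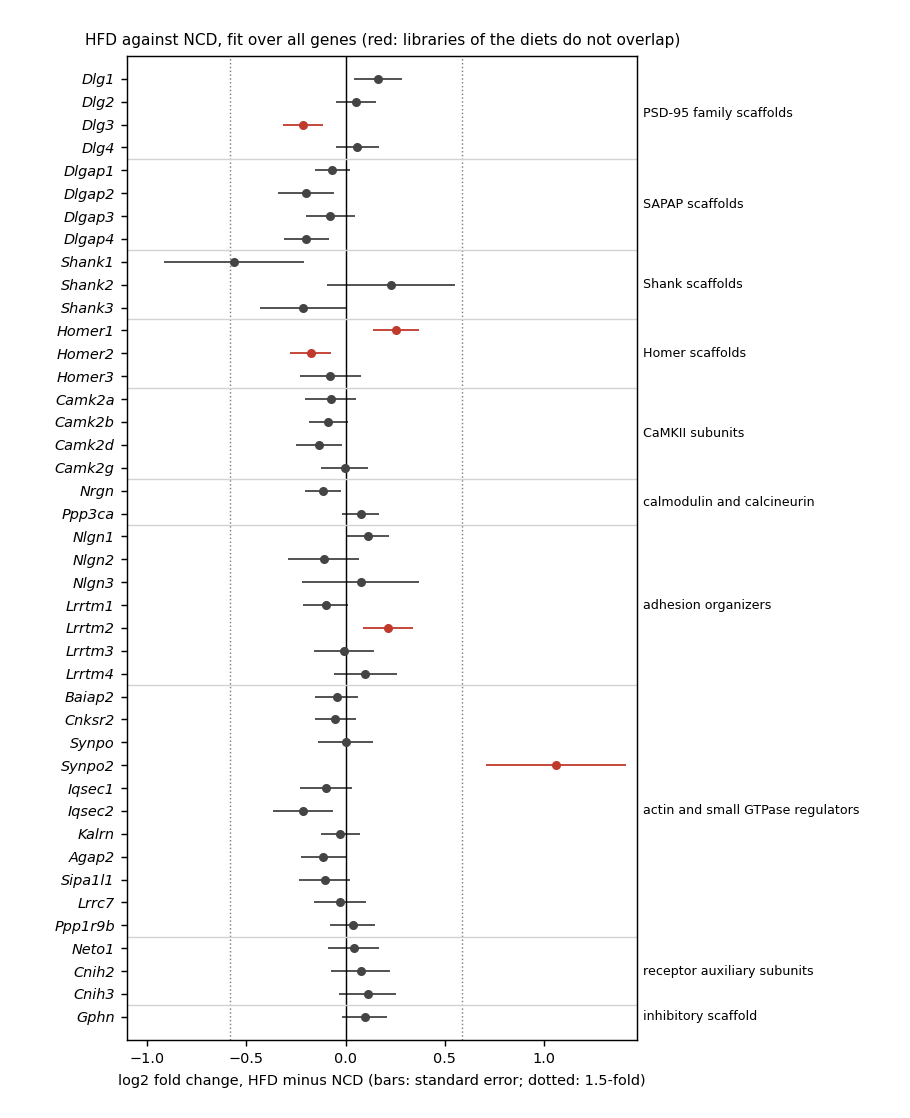
Log2 fold change of HFD against NCD for each of the 42 members, by role, from the edgeR fit over all genes, with bars of 1 standard error and dotted lines at 1.5-fold in either direction. Red marks the 5 members whose libraries did not overlap between the diets. Of all members only Synpo2, at 1.06, lies past a dotted line.

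HFD replicate 3 stood apart in the members too. It was the lowest library for 23 of 42 members and the highest for 8, where over all genes tested it was lowest for 27.1% and highest for 26.2%. The lowest value fell on it for all 4 SAPAP genes, all 3 Shank genes, 3 of 4 CaMKII genes and 7 of 11 actin and GTPase regulators. NCD replicate 3 was lowest for 10 members and highest for 9. Against the mean of HFD replicates 1 and 2, 31 members were below in HFD replicate 3, Shank3 by a log2 value of -0.96, Shank2 by -0.80 and Nlgn2 by -0.77, while Lrrtm3 was above by 0.51, Homer3 by 0.41 and Lrrtm2 by 0.36. The share of all genes tested that were below this mean was not counted, so the 31 cannot be called particular to the members.

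This deviation was compared with the base composition and length of the longest annotated transcript. Over the 42 members, the deviation of HFD replicate 3 and the GC share of the longest annotated transcript had a Pearson r of -0.57 and a Spearman rho of -0.59. Over 13241 genes tested the values were -0.28 and -0.31. For the GC share of the last 300 bases, where reads of these libraries lie, r was -0.23 and rho -0.28 over the members, and -0.10 and -0.11 over all genes. With transcript length r was -0.17 and rho -0.11 over the members, and -0.25 and -0.27 over all genes, nearly as far from 0 as with GC. For NCD replicate 3, r and rho with the GC share of the transcript were -0.13 and -0.11 over the members and of the other sign, 0.12 and 0.14, over all genes. All points of a library share its depth and its preparation, and genes are not independent replicates. Of the 21 members with a GC share from 52.1% to 63.9%, 19 were below in HFD replicate 3, with a median deviation of -0.30 and a median log2 fold change between the diets of -0.0995. Of the 21 members from 36.9% to 51.8%, 12 were below, with medians of -0.051 and 0.054. The same split was not counted over all genes tested. Homer1 and Lrrtm2, which were higher on the HFD mainly through HFD replicate 3, have GC shares of 36.9% and 38.4%. Other members went against this order. Homer3, with a GC share of 60.2%, was above in HFD replicate 3 by 0.41, and Lrrtm4, with 38.4%, was below by -0.20. GC share, transcript length, the tissue markers and the rRNA precursor all moved with this library, and their parts in the values of the members cannot be told apart.

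**Figure D4:**
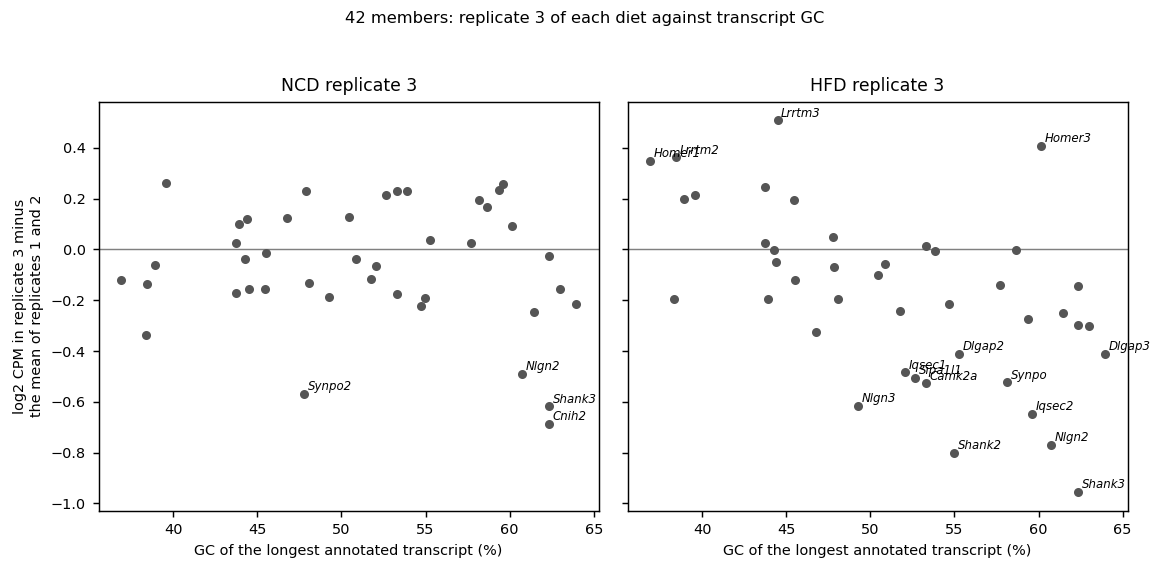
Log2 CPM in replicate 3 minus the mean of replicates 1 and 2, against the GC share of the longest annotated transcript in percent, for each of the 42 members on the NCD (left) and on the HFD (right). On the HFD most points run downward with GC, from Homer1 at 36.9% to Shank3 at 62.4%, while Homer3 at 60.2% lies above 0. On the NCD most lie within 0.3 of 0 at all GC shares.

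Leaving out HFD replicate 3 turned the sign of the members' median log2 fold change, from -0.037 to 0.042, with 25 members above 0 and 17 below, while the median over all genes was -0.0044. Without replicate 3 of both diets the members' median was 0.016, with 23 above 0 and 19 below. In those 4 libraries 4 members had an unadjusted p under 0.05, where 736 genes or 5.31% of 13868 tested did. They were Synpo2 with a log2 fold change of 0.83, Dlg4 with 0.20, Synpo with 0.22 and Camk2a with 0.16. The libraries of the diets did not overlap for 17 members, 10 higher and 7 lower, beside 34.4% of all genes tested. Over the 16 other settings, 20 members had the same sign as reported in each, and 22 had the other sign in at least 1. Homer1, Homer2, Lrrtm2, Dlg3 and Synpo2 were among the 20.

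**Figure D5:**
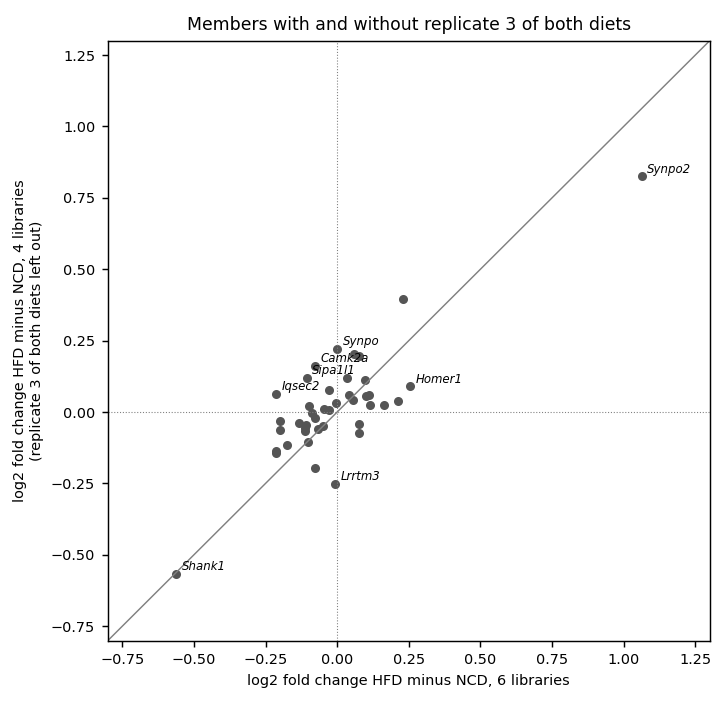
Log2 fold change of HFD against NCD for each member from all 6 libraries, against the value from the 4 libraries left without replicate 3 of both diets, with the line of equal values. Homer1 goes from 0.26 to 0.090, Camk2a goes from -0.076 to 0.16, and Synpo2 stays highest at 0.83.

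The rest of the postsynaptic machinery was counted from lists of genes that are no members. Of 61 other excitatory postsynaptic genes tested, of 62 listed, 0 had an adjusted p under 0.05 and 1 passed an unadjusted p of 0.05 in the same edgeR fit, where 3.68% of all genes tested passed, 1.71% higher and 1.98% lower. Counts of 1 or 2 genes in lists of this size are given as a description. It was Cnih1, a cornichon relative of Cnih2 that works in the secretory pathway, with a log2 fold change of 0.31 (SE 0.13). The median of the list was -0.019, between those of the members and of all genes. Of 17 glutamate receptor subunits tested, of 18 listed, 2 passed the unadjusted threshold, both higher on the HFD. Grik2, a kainate receptor subunit, had a log2 fold change of 0.41 (SE 0.16), and Grin2a, an NMDA receptor subunit that Dlg3 and Dlg4 bind, had 1.22 (SE 0.50) from 7, 11 and 8 counts on the NCD and 26, 13 and 13 counts on the HFD. Grin2a had an adjusted p of 0.979 in edgeR's test. The paper states that NMDA receptor subunits altered by a longer HFD in an earlier study were not perturbed in its mice. It does not name the subunits. The median of the 17 glutamate receptor subunits tested was -0.045, with 5 above 0 and 12 below. Of 12 inhibitory postsynaptic genes tested, of 15 listed, 1 passed, Iqsec3, the relative of Iqsec1 and Iqsec2 that binds gephyrin, with a log2 fold change of -0.37 (SE 0.16), and the median was 0.015. In each list the count at an adjusted p under 0.05 was 0, as over all genes tested.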

How the data were processed

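The members and lists were chosen with earlier results of these data known. The authors trimmed adaptors from single-end QuantSeq reads, aligned them to mm10 with Bowtie2, counted unique and multiple alignments with Bedtools and deposited whole-number read counts per gene for 6 libraries. The gene annotation, strand use and tool versions are not given in the sources used here. Reads of near-identical paralogs may have been counted more than once.

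The deposited counts went into edgeR 4.0.16 under R 4.3.3. filterByExpr (minimum count 10, minimum total 15) kept 13771 of 23282 genes, libraries were scaled by TMM, and diets were compared with glmQLFit and glmQLFTest without covariates, with Benjamini-Hochberg adjustment over all genes tested (common biological coefficient of variation 0.126). The SE is the log2 fold change over the square root of F. The code was tested on simulated counts. A count of 3, the floor, is between 0.310 and 0.438 CPM before scaling and covers counting error only. Pairs of replicates differed by more than sampling noise (chi-square over its degrees of freedom from 3.47 to 16.0), so each library was kept as its own sample.

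Values in every library were given for members with an unadjusted p under 0.05, with separate diets, among the 3 highest or 3 lowest log2 fold changes, with the highest mean CPM of their role, or among the 2 largest or 2 smallest SDs within diets, and for Nrgn and Synpo2. Other members with values in every library were chosen after their values were seen. In the other postsynaptic lists, genes with an unadjusted p under 0.05 were named. Positions, exon overlaps and GC shares came from GENCODE vM21 (GRCm38), where 96.2% of genes tested matched once, and promoters from RefSeq GRCm38.p6.

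The alternatives were a replicate block, DESeq2 1.42.0, limma 3.58.1 on quantile-normalized log2(CPM + 1), scaling by the upper quartile or by library size alone, the filter dropped or tightened to 10 counts in every library, robust estimation, and leaving out genes with over 2% of counts, each library in turn or, chosen after the counts were seen, replicate 3 of both diets. Figures were drawn with matplotlib 3.10.9, and tables handled with pandas 2.3.3, numpy 2.4.6 and scipy 1.17.1 under Python 3.11.15. Metabolite data were not analysed here.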

Additional observations from a re-analysis of the deposited data

How the results depend on the processing

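At an adjusted p under 0.05 the count over all genes was 0, 2 with DESeq2, 23 without a filter, between 0 and 3 with 1 library left out and 6 without replicate 3 of both diets, and the count of members was 0 under each of these settings. Without a filter, 902 genes had an unadjusted p under 0.05 in place of 507, and 396 in place of 176 with a 1.5-fold change, and leaving out 1 library gave between 411 and 773 genes, the highest without HFD replicate 1. The 2 members at an unadjusted p under 0.05, both higher on the HFD, became 3 with Dlg3, which was lower, under DESeq2, quantile normalization with limma, at least 10 counts in every library and robust estimation. With library size alone they were Dlg3 and Synpo2. Their number was 1 with a replicate block, between 1 and 3 with 1 library left out and 4 without replicate 3 of both diets. With 1 library left out, the 5 members without overlap became between 6 and 11, the highest without NCD replicate 1, beside 18% to 20.4% of all genes tested. Without replicate 3 of both diets they were 17, beside 34.4% of all genes tested. Fewer libraries make separation easier. With library size alone there were 5 as well, but Lrrtm2 overlapped and Camk2b, lower on the HFD, took its place. Homer1 was not under 0.05 with library size alone, with the replicate block, or without any 1 of NCD replicates 1, 2 and 3 and HFD replicate 3. The median log2 fold change of the members was between -0.064 and 0.042 with 1 library left out, above 0 only without HFD replicate 3 among these. The median of all genes moved by under 0.1 with each scaling. Of the other excitatory postsynaptic genes 1 passed an unadjusted p under 0.05, 2 with quantile normalization, 2 without a filter, 0 with the replicate block, between 0 and 4 with 1 library left out and 5 without replicate 3 of both diets. Of the glutamate receptor subunits 2 passed, 1 with at least 10 counts in every library and between 0 and 2 with 1 library left out. Of the inhibitory genes 1 passed, 0 with the replicate block, between 0 and 1 with 1 library left out and 0 without replicate 3 of both diets. The cause of these moves was not tested.

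No label says that replicate numbers pair the libraries. Over all genes, deviations of libraries with the same number correlated at -0.030, 0.052 and -0.057, and not every library correlated best with its own number. Over the 42 members alone the values were 0.16, 0.14 and 0.13, and those of different numbers were between -0.11 and -0.0096. Deviations are taken from each diet mean, so these values depend on each other. Genes are not independent replicates, so the values cannot show whether libraries are paired. The replicate block gave 371 genes in place of 507 at an unadjusted p under 0.05, and of the members Synpo2 alone. With 3 libraries a diet and a median SE of 0.12, small differences between the diets cannot be resolved for most members.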
